A study of Mus musculus with 4 samples.

Results

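Non-cycling large peritoneal macrophages were taken from single-cell RNA libraries of the mouse peritoneal cavity by a rule on 17 genes. A barcode belonged when it held 300 or more genes, at most 10% mitochondrial counts, no B-cell receptor contig, and 5 or more unique molecular identifiers (UMIs, counts of single captured RNA molecules) of Adgre1, Prg4, Alox15, Garnl3 and Ltbp1 together. Folr2 and Cbr2 together, Cd79a and Ms4a1 together, and the 6 cell-cycle genes Mki67, Top2a, Birc5, Cdk1, Ccnb2 and Rrm2 together could each hold at most 2 UMIs, and Cd3e and Cd3d none. The rule found 2407 of 20124 barcodes, 1419 in the CD library and 988 in the HFD library.

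The cells came from wild-type mice (genotype WT, no other allele named) fed from 4 weeks of age for 3 months with chow, the CD group, or with a high-fat diet, the HFD group. Leukocytes carrying CD45 were sorted from lavage fluid and sequenced as 1 droplet 3′ expression library and 1 B-cell receptor library per diet. Strain, sex, the number of mice and any pooling are not given in the labels, and a treatment note gives the high-fat feeding for the CD sample as well, although the series design names chow for it. Each diet has 1 library, so nothing was tested between diets: a difference is one between 2 libraries, and every interval below is a 95% interval for counting error only.

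Large peritoneal macrophages are the resident macrophages of the cavity. They are seeded largely before birth, maintain themselves by division, and depend on the transcription factor GATA6, which retinoic acid from the surrounding tissue keeps switched on. They clear dying cells through receptors such as TIM4, draw B-1 cells with the chemokine CXCL13, and carry coagulation factors with which they aggregate at sites of injury. A second resident type, marked by Folr2, Cbr2 and Lyve1, shares part of this program, and small peritoneal macrophages come from blood monocytes.

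All 9 large macrophage markers that the rule did not use were above 10 CPM (counts per 1000000 UMIs of the summed cells) in both libraries, and their sum was 10780 CPM in CD and 14197 CPM in HFD. Most of that sum was Fn1, at 7184 and 10593 CPM. The same list summed to 8911 and 12760 CPM in Folr2 Cbr2 macrophages and to 7717 and 10587 CPM in cycling large macrophages. The sum therefore separates these classes little. Gata6 was at 113 CPM in CD and 143 CPM in HFD, and Icam2, an adhesion molecule of this cell type, at 1167 and 1382 CPM. Small macrophage and monocyte markers summed to 130 and 147 CPM and did not move together. Clec10a was at 46.6 and 78.2 CPM, Vcan at 3.73 and 26.9 CPM and Ly6c2 at 1.02 and 1.51 CPM. The rest of the list was lower in HFD, with Ccr2 at 24.7 and 10.8 CPM. The Folr2 macrophage list outside the rule summed to 4436 CPM in CD and 5610 CPM in HFD. In the Folr2 Cbr2 macrophages described below it summed to 5504 and 6454 CPM. Most of it in the large macrophages was Pf4, at 3466 and 5277 CPM, and Pf4 alone was higher in HFD. Every other gene of that list outside the rule was lower in HFD, with F13a1 at 352 and 31.9 CPM, Ccl24 at 536 and 256 CPM and Lyve1 at 17.2 and 0.678 CPM. Dendritic cell markers summed to 32.1 CPM in CD and 7.91 in HFD, T-cell markers to 16.6 and 7.76 CPM, and mast cell, eosinophil, mesothelial and red cell markers each to under 3 CPM. The neutrophil list, at 124 and 107 CPM, was almost wholly Csf3r and S100a8, while Ly6g and Ngp had no UMI in either library, which allows up to 0.340 CPM in CD and 0.226 CPM in HFD (3 counts per library).

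B-cell RNA was present in these macrophages. The B-cell marker list outside the rule summed to 401 CPM in CD and 204 CPM in HFD, against 11709 and 12534 CPM in B cells of the same libraries. By 8 B-cell markers, a profile of the library's own B cells equalled 3.71% of the macrophages' UMIs in CD and 1.83% in HFD. Its share is given below for genes, other than those of the rule and B-cell markers, in which it reached 10% of the level in either library. The libraries also differed in depth: the macrophages held a median of 4472 UMIs in CD (507 to 29195) and 12447.5 in HFD (554 to 51931), and 8836356 and 13280208 UMIs in all. No doublet caller was run, 30 barcode sequences occurred in both libraries, and none of these was a macrophage of the set.

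The rule set the values of its own genes, which are given as description. Prg4, which encodes the lubricant proteoglycan 4, was at 4343 and 4734 CPM, Alox15, a lipoxygenase, at 4282 and 3148 CPM, and Garnl3 at 224 and 401 CPM. The 25 CD and 7 HFD barcodes just inside the threshold, with 5 or 6 UMIs of the 5 genes, had Icam2 at 578 and 378 CPM, Gata6 at 60.9 and 0 CPM and Ccr2 at 30.4 and 151 CPM. Their Cd79b, a B-cell gene, was at 396 and 378 CPM, against 61.6 and 23.2 CPM in all the macrophages. The 40 CD and 20 HFD barcodes just outside it, with 3 or 4 UMIs, had Icam2 at 129 and 58.8 CPM, Gata6 at 16.1 and 0 CPM, Ccr2 at 889 and 426 CPM and Cd79b at 96.4 and 118 CPM.

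The macrophages made up 10.9% of the 13069 CD barcodes past the filter (Clopper-Pearson interval 10.3 to 11.4) and 14.8% of the 6684 HFD barcodes (13.9 to 15.7). The difference was 3.92 percentage points (Newcombe interval 2.93 to 4.94). Barcodes with 5 or more UMIs of the 5 genes numbered 2681 in CD and 1638 in HFD, and the rule kept 52.9% and 60.3% of them. Of these candidates, 36.9% in CD and 18.8% in HFD had more than 2 UMIs of Cd79a and Ms4a1, and 1.16% and 10.3% had more than 2 UMIs of the cell-cycle genes, so the B-cell and cycle conditions weighed differently on the diets. Without macrophages that held any UMI of 6 B- and T-cell genes the difference was 2.43 points, and with all barcodes first thinned at random to 3000 UMIs it was 7.46 points, from 12.3% to 19.8%. These are shares of sorted barcodes and not numbers of cells.

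Between diets, 3811 genes were measured in the summed macrophages, with 50 or more UMIs over both libraries and 30 CPM or more in the higher one. Of these, 37 were at least 2-fold higher in HFD (0.971% of the genes measured) and 48 at least 2-fold lower (1.26%). The B-cell profile accounted for 50% or more of the level of 9 of those genes in at least 1 library. Ratios below are log2 ratios of CPM, HFD over CD, and the genes named were chosen for their size or as members of gene lists.

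**Figure D1:**
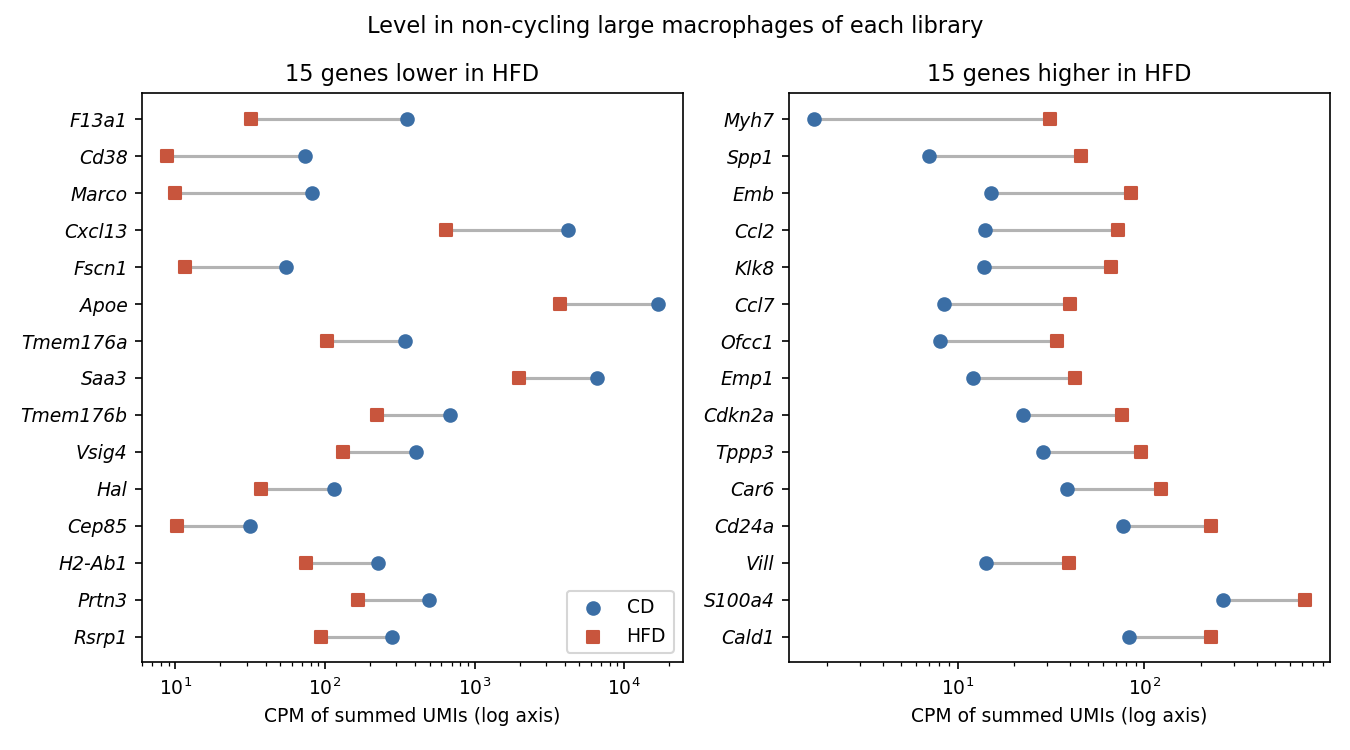
Levels in non-cycling large macrophages, in CPM of summed UMIs on a log axis, of the 15 genes with the lowest ratio of HFD over CD (left) and the 15 with the highest (right). Circles are the CD library and squares the HFD library, 1 library each; Apoe lies at 16874 and 3697 CPM, while Myh7 lies at 1.70 and 31.2 CPM.

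Among the genes lower in HFD were several products for which these macrophages are known. Cxcl13 was at 4190.4 CPM in CD and 642 CPM in HFD, a log2 ratio of -2.71 (-2.74 to -2.67). F13a1, the catalytic subunit of coagulation factor XIII, was at 352 and 31.9 CPM, an 11.04-fold lower level (log2 -3.46; -3.61 to -3.32). Marco, a scavenger receptor for bacteria and particles, was at 81.5 and 9.86 CPM (-3.05; -3.33 to -2.78). Cd38, an enzyme that consumes NAD, was at 73.0 and 8.73 CPM (-3.06; -3.36 to -2.78), and the B-cell profile equalled 5.9997% of its level in CD and 24.98% in HFD. Without macrophages holding B- or T-cell marker UMIs the ratio of Marco was -2.04, and with each barcode weighted equally that of Cd38 was -2.31.

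Saa3, an acute-phase protein of macrophages, was at 6586 CPM in CD and 1993 CPM in HFD (-1.72). Tmem176a and Tmem176b, neighbouring and overlapping genes for ion channels of antigen-presenting cells, had ratios of -1.73 and -1.63. Prtn3, better known as the neutrophil granule protease proteinase 3, was at 495 and 165 CPM, a ratio of -1.58 (-1.66 to -1.51). Of the neutrophil list, Csf3r was at 109 and 83.4 CPM and S100a8 at 14.8 and 22.8 CPM, while Ly6g and Ngp gave no UMI. The source of Prtn3 RNA was not tested. Fscn1, an actin-bundling protein, was at 55.2 and 11.6 CPM, Hal, histidine ammonia-lyase, at 115 and 37.6 CPM, and Rsrp1 at 282 and 94.7 CPM. The ratio of these 3 genes lay between -2.25 and -1.58.

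The genes higher in HFD mostly started from low levels. Myh7, the slow muscle and heart myosin heavy chain, had 15 UMIs in CD and 415 in HFD, or 1.70 and 31.2 CPM (log2 4.202; 3.46 to 5.05). Spp1, the secreted phosphoprotein osteopontin, was at 7.02 and 45.6 CPM (2.70; 2.32 to 3.10). Its CD value came from 0.916% of the macrophages, and without those holding B- or T-cell marker UMIs its levels were 1.34 and 49.8 CPM. The monocyte-attracting chemokine genes Ccl2 and Ccl7, which are neighbours in the genome, were at 14.0 and 71.8 CPM (2.35; 2.08 to 2.64) and at 8.49 and 40.1 CPM (2.24; 1.89 to 2.61). Cdkn2a, which encodes the cell-cycle inhibitor p16 and the p53-stabilizing protein ARF, was at 22.5 and 76.2 CPM (1.76; 1.54 to 1.99).

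More abundant among the higher genes were S100a4, a calcium-binding protein of motile cells, at 263 and 724 CPM (1.46), Cd24a, a surface glycoprotein of which the B-cell profile equalled 17.9% in CD and 2.80% in HFD, at 76.4 and 228 CPM (1.58), and Cald1, the actin regulator caldesmon, at 82.5 and 226 CPM (1.46). Car6, a secreted carbonic anhydrase, was at 38.4 and 122 CPM, and Emp1, a membrane protein, at 12.1 and 42.4 CPM. Emb, an adhesion protein of which the B-cell profile equalled 15.4% in CD and 0.991% in HFD, was at 15.1 and 85.2 CPM and Klk8, a secreted serine protease, at 13.8 and 66.3 CPM. T cells held far more of the last pair, with Emb at 433 and 420 CPM and Klk8 at 134 and 124 CPM. The T-cell marker list in the macrophages was at 16.6 CPM in CD and 7.76 CPM in HFD. Whether T-cell RNA adds to Emb and Klk8 was not tested.

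To compare single cells at equal depth, each macrophage was thinned at random to 3000 UMIs, which left 998 in CD and 916 in HFD and dropped 421 and 72 shallower ones. Cxcl13 was then found in 79.9% of CD macrophages (77.2 to 82.3) and 28.2% of HFD macrophages (25.3 to 31.2), against 12.5% and 3.54% of B cells thinned in the same way, which should lack it and had median depths of 4546.5 and 5821.5 UMIs before thinning. Unthinned, the shares were 82.7% and 41.9%. F13a1 was found in 50.8% and 6.66%, and in 1.24% and 0.664% of B cells. Apoe stayed nearly universal, at 99.8% and 93.1%, while its mean was 49.5 UMIs per thinned cell in CD and 11.7 in HFD. B cells held Apoe in 44.3% and 30.7%, so part of its detection may be background. For Cxcl13, F13a1 and Apoe both the share of positive cells and the level were lower in HFD. The share with at least 1 UMI depends on the mean level, and an abundant gene such as Apoe can stay detected when its level is lower. The level within positive cells was not computed. For Apoe the lower and upper quartiles of the thinned counts were 29 and 64 UMIs in CD and 4 and 16 UMIs in HFD. The lower Apoe level thus held for most thinned cells. Whether fewer cells expressed Cxcl13 or F13a1, or each cell held less of them, was not tested.

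In the other direction, S100a4 was found in 36.5% of thinned CD and 76.1% of thinned HFD macrophages, Cald1 in 18.3% and 47.5%, Cd24a in 18.2% and 43.9%, and Car6 in 9.92% and 28.5%. B cells held S100a4 in 27.9% and 35.3%. B cells, which themselves express Cd24a, held it in 59.2% and 55.6%, and held Car6 and Cald1 in under 1%. Spp1, Myh7 and Ccl2 stayed in a minority of HFD cells, at 6.33%, 6.66% and 12.2%, and were in 0.301%, 0.401% and 2.61% of CD cells. Of HFD B cells, 0.0738% held Myh7 and as many Spp1.

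**Figure D2:**
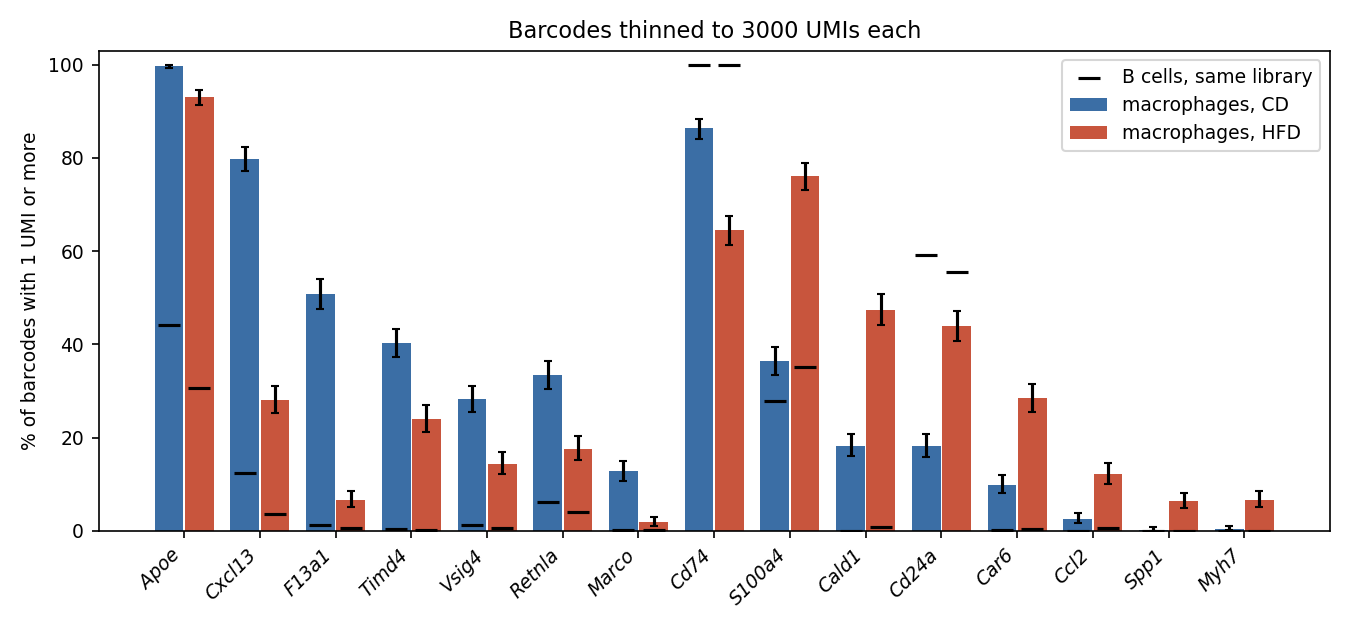
Share of barcodes with at least 1 UMI of each gene after every barcode was thinned to 3000 UMIs, for 998 CD and 916 HFD macrophages (bars, with 95% Clopper-Pearson intervals) and for B cells of the same library (black dashes). Cxcl13 stands at 79.9% in CD and 28.2% in HFD, and the B-cell dash for Cd74 stands at 100%.

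The identity genes of the cell type did not move together. Of 26 resident-identity genes, all measured with 20 or more UMIs, 16 were above and 10 below a ratio of 0, with a median of 0.25. Over the 11468 genes with that many UMIs, 42.9% were above 0 and the median was -0.05. None of the 26 was 2-fold higher and 5 were 2-fold lower, namely Cxcl13, Saa3, Vsig4, Cd93 and Timd4. Of all genes with 20 or more UMIs, 2.28% were 2-fold higher and 3.79% 2-fold lower. These shares and the 42.9% above 0 are the background for each list count below. Timd4, the gene of the apoptotic-cell receptor TIM4, was at 255 CPM in CD and 104.7 CPM in HFD (-1.28; -1.38 to -1.19), and Vsig4, a complement receptor of resident macrophages, at 406 and 132 CPM (-1.62; -1.70 to -1.54). Without macrophages holding B- or T-cell marker UMIs the ratio of Timd4 was -0.94, under 2-fold.

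Other identity genes were higher in HFD by less than 2-fold. Gata6 had a ratio of 0.34 (0.23 to 0.45), Slpi, a secreted protease inhibitor and among the most abundant transcripts, was at 24466 CPM in CD and 36301 CPM in HFD (0.57), and Fn1, fibronectin, at 7184 and 10593 CPM (0.56). Of 13 measured genes of retinoic acid handling and the Gata6 program the median was 0.05, and 1 was past 2-fold, Aldh1a2, a retinoic acid synthesizing enzyme, with a ratio of -1.52. At equal depth Gata6 was found in 27.2% of CD and 31.6% of HFD macrophages and Timd4 in 40.3% and 24.0%.

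Coagulation genes other than F13a1 leaned upward in HFD. Of 14 measured, 11 were above 0, the median was 0.26, and 1 was 2-fold higher. That gene was Anxa2, an annexin that binds plasminogen with S100a10, at 210 and 483 CPM (1.198, interval 1.12 to 1.27). Anxa2 was also higher in HFD in other classes. It was at 171 and 331 CPM in B cells, 187 and 262 CPM in T cells and 379 and 682 CPM in Folr2 Cbr2 macrophages. F5, coagulation factor V, was at 448 and 718 CPM (0.68; 0.63 to 0.73), F7, factor VII, at 123 and 204 CPM (0.73), and F10, factor X, at 392 and 526 CPM (0.42). F13a1 was the lone member 2-fold lower.

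Apolipoprotein genes were lower in HFD. Apoe, the main lipid-carrying apolipoprotein of macrophages, was at 16874 CPM in CD and 3697 CPM in HFD, 4.56-fold lower (log2 -2.19; -2.21 to -2.18). Its genomic neighbours Apoc1, Apoc4 and Apoc2, which follow it in that order, were at 26.0 and 4.44, 28.1 and 6.93, and 547 and 289 CPM, with ratios of -2.55, -2.02 and -0.92. Among macrophages of 6000 to 15000 UMIs, of which there were 382 in CD and 410 in HFD, the ratio of Apoc1 was -1.53. Pltp, the phospholipid transfer protein, had a ratio of -0.77.

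The cholesterol exporters did not share the apolipoproteins' ratio. Abca1 was at 28.1 and 24.5 CPM (-0.19; -0.44 to 0.05), and Abcg1 at 11.7 and 13.1 CPM (0.17; -0.19 to 0.53). Over the 17 measured genes of cholesterol efflux and LXR, the sterol-sensing nuclear receptor, 12 were below 0 and 3 were 2-fold lower, with a median of -0.17. Sterol synthesis genes had a median of -0.12 over 19 genes and none past 2-fold.

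Lipid uptake and storage genes were 15 above and 7 below 0 of 22 measured, with a median of 0.20. The 2 past 2-fold were Hilpda, an inhibitor of lipid-droplet lipolysis, at 16.0 and 36.5 CPM (1.19; 0.92 to 1.48), and Angptl4, whose product inhibits lipoprotein lipase, at 5.77 and 11.97 CPM (1.05; 0.59 to 1.54). With equal weight per barcode the ratio of Angptl4 was 0.80, and thinned to 3000 UMIs that of Hilpda was 1.45 in one random draw, 0.92 in a second and 1.27 from the mean over all possible draws. Lpl, lipoprotein lipase, was at 222 and 321 CPM (0.54), Plin2, a lipid-droplet coat protein, at 441 and 557 CPM (0.34), and Cd36, a fatty acid receptor, at 262 and 256 CPM (-0.03; -0.11 to 0.05). The fatty acid binding proteins Fabp5 and Fabp4 went opposite ways, at 0.44 (0.39 to 0.48) and -0.34 (-0.37 to -0.31).

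Of 22 fatty acid oxidation genes 20 were above 0, with a median of 0.15. Pdk4, the kinase that turns pyruvate away from oxidation, was the lone gene past 2-fold, at 3.85 and 28.8 CPM (2.90; 2.39 to 3.45), and at equal depth it was found in 1.202% of CD and 8.30% of HFD macrophages. Cpt1a, the carrier step of mitochondrial fatty acid import, was at 45.9 and 61.9 CPM (0.43; 0.26 to 0.60). Of 18 glycolysis genes 16 were above 0 with a median of 0.27 and none past 2-fold. Gapdh was at 2779 and 4153 CPM (0.58), and Slc16a3, a lactate exporter, at 35.4 and 56.3 CPM (0.67). The respiratory chain list had a median of 0.10 over 27 genes. In the lipid-associated macrophage list Spp1 was the lone gene past 2-fold, and Trem2, its receptor marker, was at 47.6 and 42.7 CPM (-0.16; -0.34 to 0.03).

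**Figure D3:**
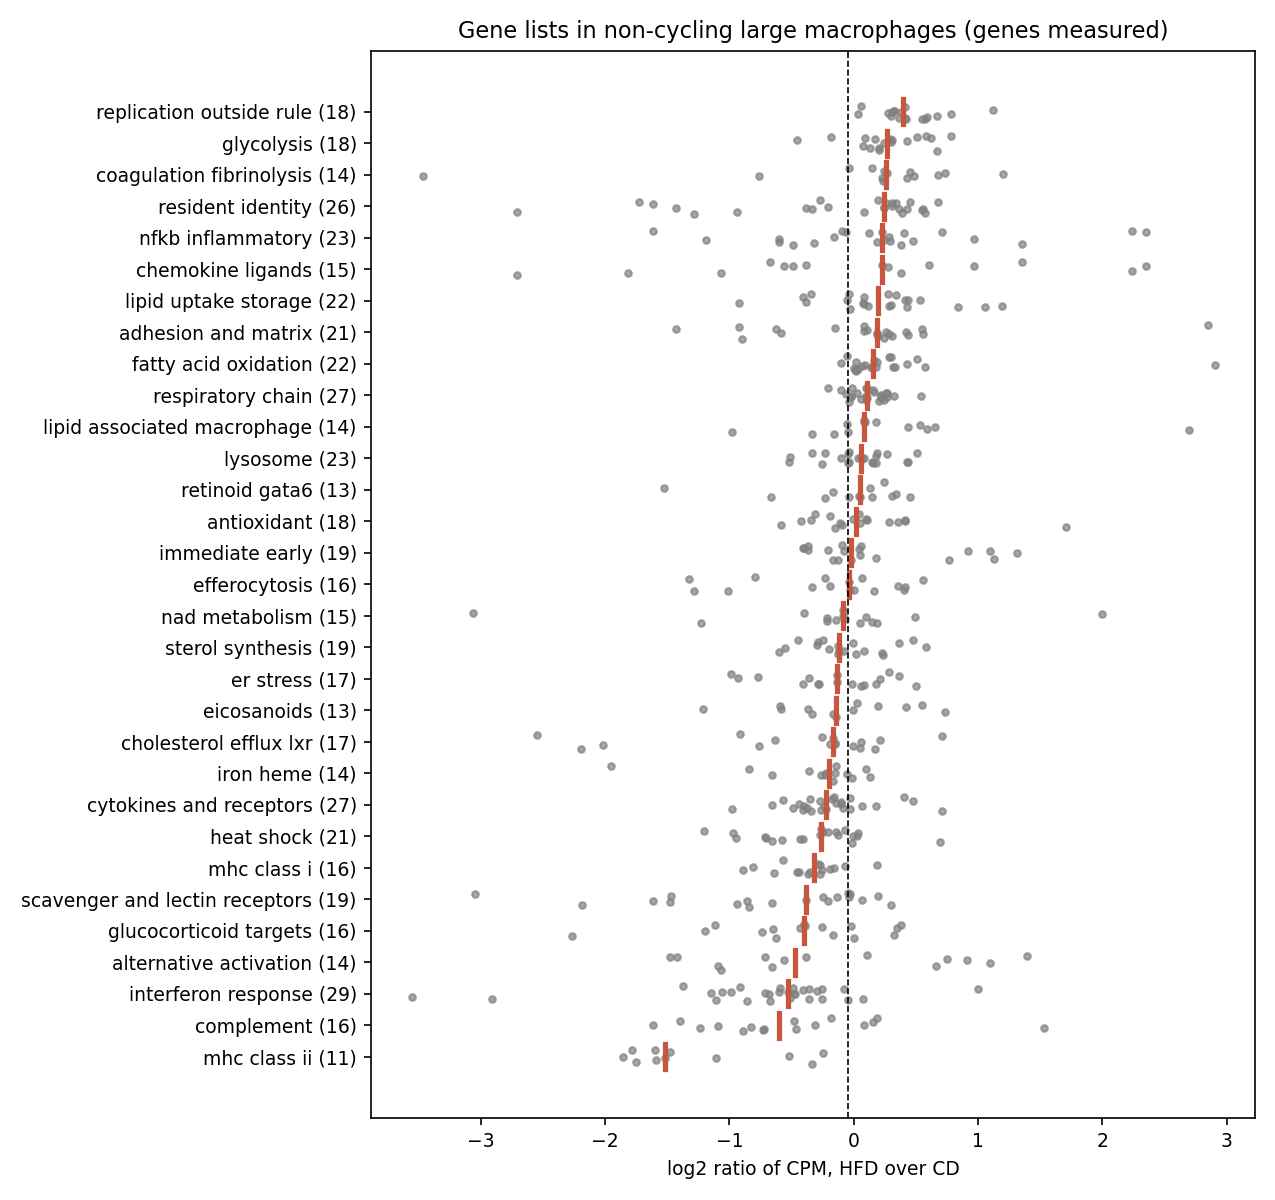
Log2 ratio of HFD over CD of each measured gene (grey points, jittered vertically) in 31 gene lists, with the list median as a red bar and the number of genes measured in brackets. The dashed line is the median of all 11464 genes with a finite ratio, -0.05. The class II list lies lowest, with a median of -1.52. That median is the ratio of H2-Ob, of which the B-cell profile equalled 95.7% in CD and 134% in HFD.

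Receptors for particles and complement components were mostly lower in HFD. Of 19 scavenger and lectin receptors 16 were below 0 and 5 were 2-fold lower, namely Marco, Vsig4, Stab1, Mrc1 and Colec12, with a median of -0.39. Stab1, a clearance receptor, was at 28.7 and 6.33 CPM (-2.18) and Mrc1, the mannose receptor, at 13.01 and 4.67 CPM (-1.48; -0.99 among macrophages of 6000 to 15000 UMIs). Msr1, scavenger receptor A, was at 420 and 408 CPM (-0.04; -0.10 to 0.02), so the list did not move as one. Of 16 genes for clearing dying cells 10 were below 0 and 6 above, near the 42.9% above 0 of all genes with 20 or more UMIs. The median of -0.04 was also near that of all such genes, -0.05, so the list as a whole did not stand apart. The 3 genes 2-fold lower, where 3.79% of all such genes were, were Timd4, Gas6, a bridging ligand, and Axl, a receptor for it. Gas6 had 15 and 9 UMIs, and Axl was at 8.49 and 4.22 CPM (-1.01; -1.54 to -0.49; -0.76 among macrophages of 6000 to 15000 UMIs). Mertk, a related receptor, had a ratio of -0.33 and Lrp1, a large endocytic receptor, 0.41.

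The complement list had 12 of its 16 measured genes below 0 and a median of -0.60. The alternative pathway factor Cfb was at 138 and 52.3 CPM (-1.40; -1.54 to -1.26), C4b at 1573 and 850 CPM (-0.89), and C3 at 82.8 and 46.8 CPM (-0.83). The C1q subunits, which start the classical pathway, were each lower by less than 2-fold: C1qa at 4213 and 2538 CPM (-0.73), C1qb at 6529 and 4732 CPM (-0.46) and C1qc at 5656 and 4054 CPM (-0.48). The 4 genes past 2-fold downward were Vsig4, Cfb, C5ar2 and Cd55, and the lone gene past it upward was Cd59a, with 1.02 and 2.94 CPM. Cd55 had 108 and 76 UMIs, the B-cell profile equalled 85.9% of its level in CD and 86.6% in HFD, and its ratio of -1.09 was 0.06 among macrophages of 6000 to 15000 UMIs. Cfp, properdin, was at 2288 and 2426 CPM (0.08; 0.06 to 0.11).

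Chemokine genes split. Of 15 measured, Ccl2, Ccl7 and Ccl3 were 2-fold higher and Cxcl13, Cxcl12 and Ccl24 2-fold lower, and the median was 0.23. Ccl3 was at 17.1 and 43.8 CPM (1.36; 1.10 to 1.62), Cxcl12, a retention chemokine, at 28.6 and 8.13 CPM (-1.82; -2.15 to -1.49), and Ccl24, which draws eosinophils, at 536 and 256 CPM (-1.07; -1.13 to -1.001). Thinned to 3000 UMIs, Ccl24 had a ratio of -0.96 in one random draw, -1.14 in a second and -1.05 from the mean over all possible draws. Pf4, platelet factor 4, was at 3466 and 5277 CPM (0.61). The neutrophil attractants Cxcl1 and Cxcl2 went opposite ways by less than 2-fold, at -0.49 and 0.23. Of 27 cytokine and cytokine receptor genes 22 were below 0 and none past 2-fold, and Tnf and Il6 were at 6.90 and 9.11 CPM and at 8.49 and 11.8 CPM.

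Alternative activation genes, which macrophages express under interleukin 4, did not move together: 2 of 14 were 2-fold higher and 4 were 2-fold lower. Retnla, a secreted resistin-like protein, was at 1343 CPM in CD and 501 CPM in HFD (-1.42; -1.46 to -1.38), but without macrophages holding B- or T-cell marker UMIs it was at 833 and 532 CPM, a ratio of -0.65. Mgl2, a lectin, was at 11.996 and 31.5 CPM (1.39; 1.08 to 1.71), and Klf4, a transcription factor, at 54.5 and 116 CPM (1.09; 0.95 to 1.24; 0.997 among macrophages of 6000 to 15000 UMIs). Arg1, arginase, had a ratio of 0.66. Among immediate early genes Nr4a1, an orphan nuclear receptor, was at 37.9 and 94.3 CPM (1.31; 1.14 to 1.49), whereas Fos and Jun had ratios of -0.37 and -0.21.

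Interferon response genes were lower in HFD in 27 of 29 cases, with a median of -0.53, and 6 were 2-fold lower. The 6, Ifit3, Rsad2, Mx1, Usp18, Ly6a and Ifit1, had low counts except Ly6a, with Ifit3 at 47 and 6 UMIs and 1.91% and 23.02% of it equal to the B-cell profile, and the B-cell profile was above the whole level of Ly6a, at 138% and 154%. Without macrophages holding B- or T-cell marker UMIs the ratio of Ifit3 went from -3.56 to 0.64, and with equal weight per barcode that of Ifit1 went from -1.06 to 0.52. Genes with more counts had smaller ratios: Rtp4 was at 66.7 and 36.7 CPM (-0.86; -1.04 to -0.69) and Ly6e at 721 and 586 CPM (-0.30; -0.35 to -0.25), with 14.5% and 8.71% equal to the B-cell profile. Gbp2, an interferon-induced GTPase, went the other way, at 21.4 and 42.7 CPM (0.997; 0.76 to 1.24). The list median stayed between -0.57 and -0.44 in all 9 alternatives.

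Class II genes, which present antigen to T cells, are where B-cell RNA weighed most. All 11 genes of the list were below 0 and 8 were 2-fold lower, with a median of -1.52. Cd74, the class II invariant chain, was at 2007 CPM in CD and 596 CPM in HFD (-1.75; -1.79 to -1.71). B cells held Cd74 at 22814 and 23920.1 CPM, and the B-cell profile equalled 42.1% of the macrophages' Cd74 in CD and 73.6% in HFD. It equalled 39.7% and 63.0% of H2-Aa, and 28.0% and 46.6% of H2-Ab1, both chains of a class II molecule. After the profile was subtracted Cd74 and H2-Aa were left at 1205 and 264 CPM in CD, and in HFD were past the 50% limit and set to 0. H2-Ab1 was left at 168 and 40.6 CPM, a ratio of -2.05 against -1.59 before. The median of the genes still measured was -0.44, but nothing is read from it. These were the 4 that the limit left, H2-Ab1, Ctss and the 2 peptide-loading genes H2-DMa and H2-DMb1. The B-cell profile equalled 12.1% of H2-DMa in CD and 6.86% in HFD.

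In macrophages with no UMI of the 6 B- and T-cell genes, 488 in CD and 412 in HFD, Cd74 was at 1550 CPM in CD and 363 CPM in HFD, a ratio of -2.09, and H2-Ab1 had a ratio of -1.90. At equal depth Cd74 was found in 86.4% and 64.5% of macrophages and in 100% of B cells of both libraries. Class II UMIs were concentrated in few cells: the 10% of thinned macrophages with most held 59.8% of the Cd74 UMIs in CD and 57.7% in HFD. Class I genes, which all nucleated cells express, were below 0 in 15 of 16 cases with a median of -0.32 and none past 2-fold, B2m being at 1886 and 1459 CPM.

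**Figure D4:**
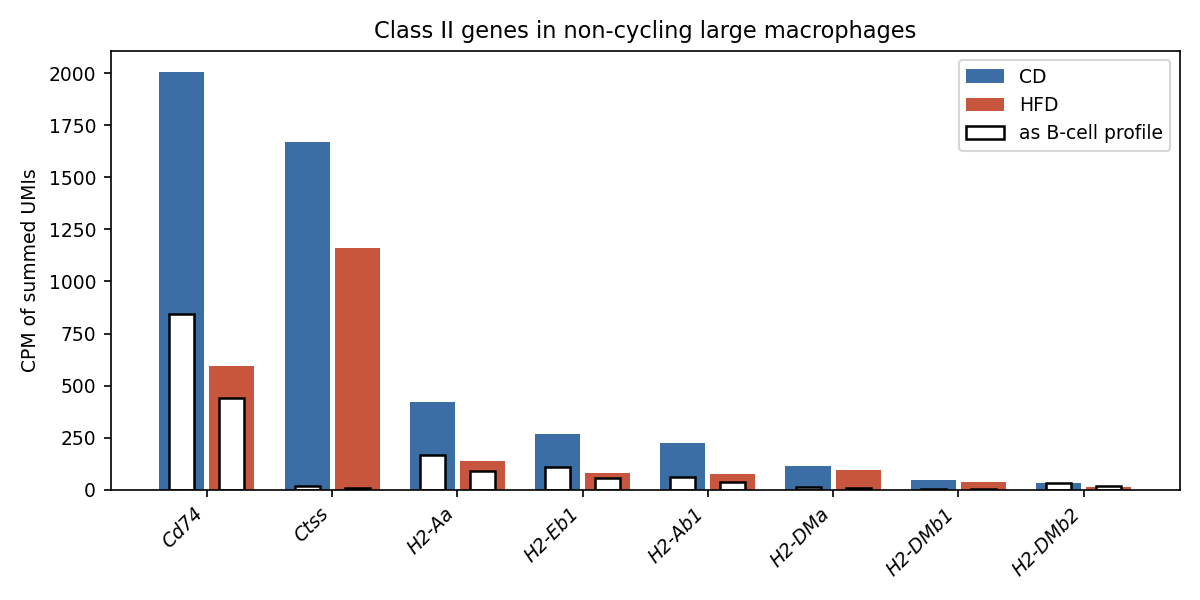
CPM of summed UMIs of the 8 most abundant genes of the class II list in CD and HFD macrophages (filled bars), and the part equal to the B-cell profile of the same library (white bars). The white bar fills 42.1% of the Cd74 bar in CD and 73.6% in HFD.

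Heat shock genes were below 0 in 18 of 21 cases, with a median of -0.26 and 1 gene 2-fold lower. Most encode chaperones, many of which heat and other protein-damaging stress induce through the factor HSF1. The list also holds Hsf1 itself and the mitochondrial chaperonin genes Hspd1 and Hspe1. Hspa8, the constitutive chaperone HSC70, was at 1632 and 847 CPM (-0.95; -0.98 to -0.91), Dnajb1, a co-chaperone, at 52.7 and 26.9 CPM (-0.97; -1.18 to -0.77), and Hspa1b, an inducible HSP70, at 19.5 and 8.43 CPM (-1.21; -1.56 to -0.85; -0.96 among macrophages of 6000 to 15000 UMIs). Hsp90ab1, the constitutive HSP90, was at 1200.3 and 1219.6 CPM (0.02; -0.01 to 0.06). B cells, for comparison, held Hspa8 at 1262 and 861 CPM. Hspa1a, a near-identical neighbour of Hspa1b with a ratio of -0.43, may share reads with it, so the pair is uncertain.

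The promoters of these genes were searched for the heat shock element, written GAANNTTC or TTCNNGAA, each of which reads the same on both strands. RefSeq (GRCm38.p6) windows from 250 bases before to 50 after the start were matched for 16 of the 21 genes. Of the 16, 11 held a match in at least 1 window, against 17.0% of all 27025 genes with a window. The list was drawn up as heat shock genes, many of them induced through HSF1, so an excess over all genes was set beforehand. Nothing is read from it about the diets. Hspa1a and Hspa1b share a matched stretch, as do Hspd1 and Hspe1, so the 11 are not independent. Dnajb1, with a ratio of -0.97, held no match in its windows, and Hspa8 was among the genes without a window. The 4 stretches shown lie before the start and were picked because they place the element in genes of differing ratio. Capitals mark the matches, and the coordinates are those of GRCm38.p6, not of the build of the count files.

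Hspa1b (chr17:34959315-34959362, minus strand): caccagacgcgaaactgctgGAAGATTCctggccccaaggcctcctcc

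Dnaja1 (chr4:40722324-40722371, plus strand): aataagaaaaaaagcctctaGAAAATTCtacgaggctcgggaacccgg

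Hspb1 (chr5:135887782-135887849, plus strand): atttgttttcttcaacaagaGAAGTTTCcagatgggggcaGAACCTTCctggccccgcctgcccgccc

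Hspe1 (chr1:55088039-55088096, plus strand): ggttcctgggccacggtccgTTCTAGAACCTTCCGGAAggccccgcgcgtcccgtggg

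The ratios of these genes were -1.21 for Hspa1b, -0.58 for Dnaja1, -0.27 for Hspb1, a small heat shock protein, and -0.07 (-0.15 to 0.01) for Hspe1, a mitochondrial chaperonin. Hspe1 carried 3 overlapping matches and lay nearest 0. Its neighbour Hspd1 holds the same 58 bases on the other strand and had a ratio of -0.25. Hspa1a holds the same stretch as Hspa1b, base for base. A match describes these letters only.

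Glucocorticoid-responsive genes were below 0 in 12 of 16 cases, with a median of -0.40 and 3 genes 2-fold lower, Fkbp5, Mt2 and Ddit4. From the mean over all possible draws of 3000 UMIs, Mt2 had a ratio of -0.93 and Ddit4 of -0.96, and in one draw that of Ddit4 was 0.12. Fkbp5, a co-chaperone of the receptor, was at 13.8 and 2.86 CPM (-2.27; -2.84 to -1.73), Mt2, a metallothionein, at 3.28 and 1.43 CPM and Ddit4, a stress-induced mTOR inhibitor, at 2.94 and 1.36 CPM with 28.8% and 19.6% equal to the B-cell profile, while the better counted Dusp1, a phosphatase, and Tsc22d3, known as GILZ, had ratios of -0.43 and -0.62, with 19.9% of Tsc22d3 in CD and 8.37% in HFD equal to the B-cell profile. The glucocorticoid response element was matched in 2 of 14 genes with a RefSeq window, Sgk1 and Mt1, against 0.537% of all genes. The list was drawn up as glucocorticoid-responsive genes, so nothing is read from this excess about the diets. Sgk1 had a ratio of 0.00 (-0.13 to 0.13), and Mt1, the other metallothionein, -0.74.

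Iron genes were below 0 in 12 of 14 cases, with Cp, the ferroxidase ceruloplasmin, at 27.4 and 7.08 CPM (-1.95; -2.31 to -1.60) and Fth1, the ferritin heavy chain, at 4635 and 2577 CPM (-0.85). Endoplasmic reticulum stress genes had a median of -0.13 over 17 genes. Of the antioxidant genes Gpx3, a secreted glutathione peroxidase, was the lone one past 2-fold, at 6.90 and 22.5 CPM (1.71; 1.30 to 2.13). Of the NAD genes other than Cd38, Bst1, its close relative, was at 137 and 142 CPM (0.05; -0.05 to 0.16). Lysosome genes had a median of 0.06 over 23 genes and none past 2-fold.

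Adhesion and matrix genes were 15 above and 6 below 0, with Vcan, the proteoglycan versican that monocytes express, at 3.73 and 26.9 CPM (2.85; 2.33 to 3.41). Of the eicosanoid genes Ptgis, prostacyclin synthase, was at 505 and 737 CPM (0.55; 0.49 to 0.60). Replication and other cell-cycle genes outside the rule were above 0 in 18 of 18 cases, with a median of 0.39. Besides replication genes that list holds Cdkn1a, a cell-cycle inhibitor, with a ratio of 0.32, and the tubulin gene Tuba1b, also 0.32. Mcm2, a helicase subunit, was past 2-fold at 4.64 and 10.1 CPM (1.12, interval 0.61 to 1.66). Thinned to 3000 UMIs, Mcm2 had a ratio of 0.74 in one random draw and 1.17 from the mean over all possible draws. The rule capped other cycle genes in both libraries, and the cells it left out as cycling were 16 in CD and 104 in HFD.

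Within each library some genes varied far more between cells than counting allows. The Fano factor, the variance over the mean of thinned counts, had a median of 1.04 over 3348 ranked genes in CD and 3272 in HFD. Slpi reached 97.9 and 121, Retnla 38.7 and 30.9, Cxcl13 30.3 and 18.0, Cd74 29.05 and 15.7, Saa3 29.3 and 9.70 and Apoe 17.9 and 10.3. Retnla was the most uneven of these: the 10% of cells with most held 81.3% of its UMIs in CD and 93.9% in HFD, while for Slpi they held 36.9% and 33.4%.

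Retnla and class II UMIs tended to lie in the same cells. Across thinned macrophages, which share their library and depth, the correlation of Cd74 with Retnla was 0.35 over 998 CD cells and 0.28 over 916 HFD cells, and that of Prg4 with Retnla was -0.29 and -0.28. Cd74 and H2-Aa correlated at 0.64 and 0.50. Both Cd74 and Retnla are also higher in Folr2 Cbr2 macrophages, at 4346 and 2173 CPM and at 6622 and 3562 CPM, and what separates these cells within the set was not tested.

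A group of 8 genes with no evident common role, Cmss1, Cdk8, Gphn, Lars2, Gm19951, Camk1d, Filip1l and Jarid2, varied together between cells. Their 28 pairwise correlations ran from 0.32 to 0.78 in CD and from 0.40 to 0.80 in HFD. Together they held a median of 1.76% of a cell's UMIs in CD and 1.69% in HFD, with 10% of cells under 0.414% and 10% over 5.46% in CD, and under 0.563% and over 6.71% in HFD. Their share correlated with the mitochondrial share at 0.08 and -0.01 with the ribosomal protein share at -0.29 and -0.16, and with the logarithm of depth before thinning at -0.31 and -0.30; the part of these in the pattern was not tested. Cmss1 and Filip1l overlap in the RefSeq annotation, so their reads may not be told apart, and these 8 genes were chosen after the Fano ranks were seen.

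Set beside the other resident type, the macrophages differed from 80 CD and 83 HFD Folr2 Cbr2 macrophages in both libraries. Of 1174 genes compared, 7 were at least 2-fold higher in the large macrophages in both libraries and 17 at least 2-fold higher in the Folr2 Cbr2 class. The 7 were Cd9, Tgfb2, Fabp4, Slpi, Serpinb1a, Ptgis and Pla2g7; Fabp4, the adipocyte fatty acid binding protein, was at 1849 against 454 CPM in CD and 1457 against 574 CPM in HFD. Higher in the Folr2 Cbr2 class were Lyve1, a hyaluronan receptor, at 17.2 against 224 CPM and 0.678 against 143 CPM, Maf, a transcription factor, at 43.3 against 147 and 35.5 against 135 CPM, and Ccl6 and Fcna. The classes were cut on Folr2 and Cbr2 counts, so genes that follow those markers had to differ.

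Apoe and Cxcl13 were lower in HFD in both types. In Folr2 Cbr2 macrophages Cxcl13 had a ratio of -2.99 (-3.13 to -2.84), Apoe -1.80 (-1.84 to -1.76), Saa3 -1.60 and S100a4 1.17 (1.02 to 1.33). Sizes differed for others: F13a1 was at -1.44 (-1.60 to -1.28) there against -3.46, and Vsig4 at -0.74 (-0.98 to -0.50) against -1.62. Timd4 was at -0.11 (-0.56 to 0.35) there against -1.28, and Cdkn2a, with 9 and 11 UMIs, at -0.42 (-1.83 to 1.03) against 1.76. Myh7 gave 0 and 1 UMI there. With 1 library per diet the difference between the types could not be tested.

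**Figure D5:**
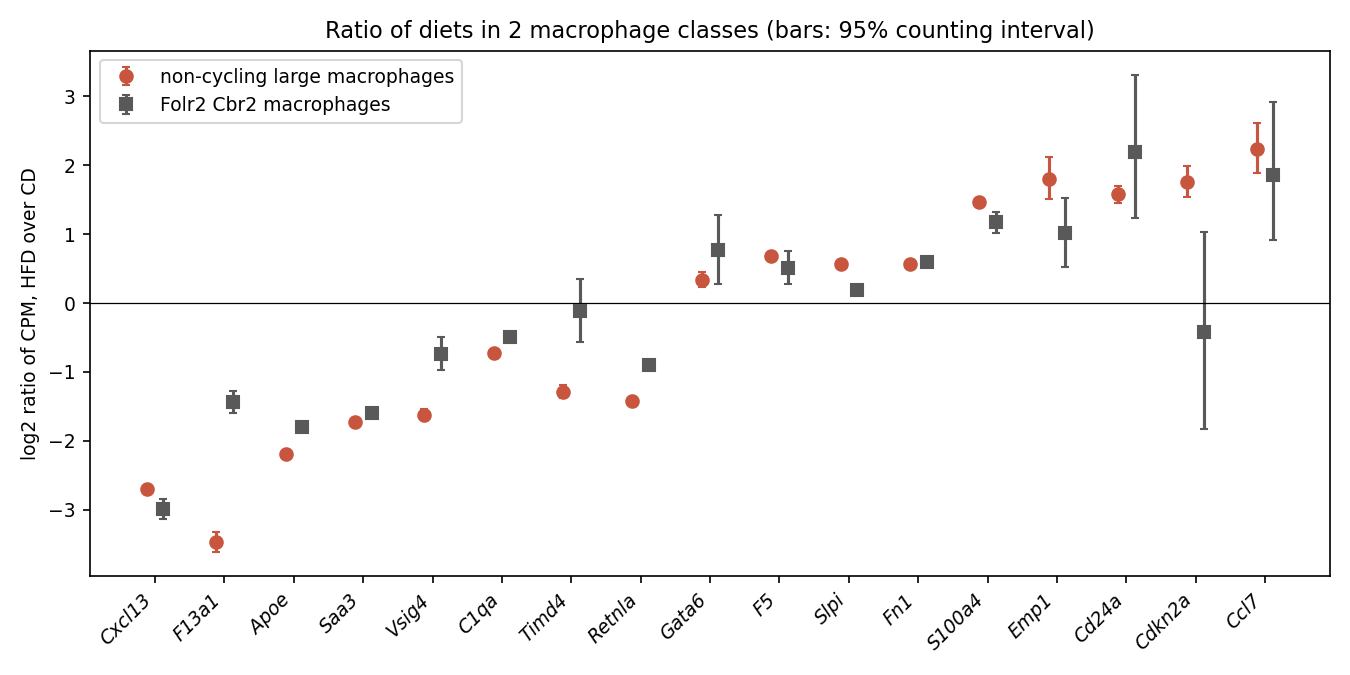
Log2 ratio of CPM, HFD over CD, of 17 genes in non-cycling large macrophages (circles) and in Folr2 Cbr2 macrophages (squares), with 95% counting intervals that do not cover differences between mice. Cxcl13 and Apoe lie far below 0 in both classes, while Timd4 lies at -1.28 in the large macrophages and at -0.11 in the other class.

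Within the HFD library the 104 cycling large macrophages, chosen by the same rule with 3 or more UMIs of the cycle genes, differed from the non-cycling ones in some of the same genes. Cxcl13 was at 642 CPM in non-cycling and 31.7 CPM in cycling cells, a log2 ratio of 4.34 (3.98 to 4.73), and Apoe at 3697 and 1904 CPM (0.96; 0.91 to 1.01). Timd4 was at 104.7 and 49.1 CPM (1.09; 0.79 to 1.41) and Cdkn2a at 76.2 and 13.3 CPM (2.52; 1.96 to 3.14). F13a1 went the other way, at 31.9 CPM in non-cycling and 93.1 CPM in cycling cells (-1.55; -1.80 to -1.29), and S100a4 did so by less, at 724 and 947 CPM (-0.39; -0.46 to -0.32). Gata6 was at 143 and 114 CPM (0.33; 0.13 to 0.54). Cycling cells were deeper, with a median of 16489 UMIs against 12447.5, and the 16 cycling cells of CD, at 3908 CPM of Cxcl13 and 16517 CPM of Apoe, are too few for more than these values.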

How the data were processed

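The deposited matrices hold raw counts, 1 UMI count for each gene in each barcode. Cell Ranger 8.0.1 stands in them per the file headers, whereas version 6.0.1, with Seurat 4.3.0 and mm39, stands in the submitters' processing notes. The deposited receptor tables were used only to remove barcodes with a contig. Cell calling settings and use of strand in counting are not given in the sources used here. Counts of the 26 symbols on several identifiers were added up.

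UMIs were summed over the macrophages of a library and given as CPM, per 1000000 UMIs. Ratios carry the exact conditional interval of 2 Poisson counts. The interval and ratio code was tested on simulated data. B cells were barcodes with a contig and 5 or more UMIs of Cd79a and Ms4a1, T cells those with no contig and 3 or more UMIs of Cd3e and Cd3d, both without UMIs of the 5 macrophage genes and of the markers of the other. Thinning drew 3000 UMIs without replacement; ratios and single-cell shares used separate draws. The Folr2 Cbr2 class, with 5 or more UMIs of both genes, had fewer than the planned 100 barcodes and was used with 50 as the minimum.

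Genes named between diets are the 15 highest and 15 lowest ratios found in 10% or more of the macrophages of the higher library with under 50% B-cell profile, up to 6 genes of largest ratio per list, defining list members, and the 15 largest Fano factors at a mean of 0.1 UMI or more; others were chosen after their values were seen. Receptor, mitochondrial, ribosomal protein, sex-linked and rule genes were left out. The macrophages and all lists were chosen with earlier results of these data known. Python 3.11.15, numpy 2.4.6 and scipy 1.17.1 were used.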

Additional observations from a re-analysis of the deposited data

Results flagged for a closer look

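Of 246 genes set side by side in the large macrophages and the Folr2 Cbr2 class, 2 had ratios of diets on opposite sides of 0 with counting intervals off 0 in both. Ptgis was at 0.55 (0.49 to 0.60) in the large macrophages and at -0.42 (-0.70 to -0.15) in the Folr2 Cbr2 class. Ncoa4, a ferritin receptor of autophagy, was at -0.23 (-0.46 to -0.01) and at 0.76 (0.04 to 1.54), both intervals ending near 0. With 1 library per diet the difference between the classes was not tested.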

How the results depend on the processing

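The difference in share was 2.43 points without macrophages holding B- or T-cell marker UMIs and 7.46 points with the rule applied after thinning, and the other 4 alternatives lay between 3.60 and 4.93. Without a filter on low counts, 632 genes were 2-fold higher and 1244 2-fold lower, against 37 and 48; the 9 other alternatives gave 36 to 44 and 42 to 55. Of 31 lists, 25 kept the sign of their median in all 9 alternatives, and the medians of alternative activation, efferocytosis, immediate early, lysosome, NAD and sterol synthesis genes changed sign in at least 1. The reversed genes were Cd55 (0.058 among macrophages of 6000 to 15000 UMIs), Gas6 (0.12 in one thinning draw, -0.45 from the mean over all possible draws), Ifit1 (0.52) and Kynu (0.33) with equal weight per barcode, and Ifit3 (0.64 without B- or T-cell marker UMIs); the cause was not tested. The B-cell profile equalled 59.7% of the level of Kynu in CD and 88.4% in HFD. Of 81 listed or named genes past 2-fold, 68 to 81 stayed past it in each alternative, and 71 of the 72 still measured did with the B-cell profile subtracted. Of 80 measured after thinning, 68 stayed past 2-fold in the first draw, 66 in a second and 72 from the mean over all possible draws. The second draw, that mean and the window of 6000 to 15000 UMIs were chosen after the data were seen. No paired analysis was possible because each diet has 1 expression library. Differences between mice, preparation days and diets cannot be told apart.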
